A study of Mus musculus with 4 samples.

Results

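Tuft cells were taken as the cells that the authors' deposited cell table annotates as Tuft, one of 7 epithelial classes, and 425 of the 15053 cells of the series carried that name. The cells came from dissociated small intestines of mice on a ketogenic or a control diet, with 2 single-cell 3' v2 libraries for each diet on the 10x platform. Ketogenic libraries 1 and 2 held 116 and 108 tuft cells, and control libraries 1 and 2 held 79 and 122. The labels name neither the strain, age and sex of the mice, nor the time on the diet, nor how many animals a library holds. The p-values therefore rest on the spread between libraries, which may be technical. For genes, that spread was estimated across many genes together. The p-value or SE of a gene thus does not measure its own spread between libraries alone. In the comparison of tuft cells with enterocytes, a gene's own spread had almost no weight in its p-value or SE. A very small p there does not show that the libraries of a diet were close for that gene.

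Tuft cells are rare chemosensory cells of the gut lining with a bristle of microvilli at their tip. They sense parasites, succinate and other luminal signals through a cascade shared with taste cells, and answer with interleukin 25, acetylcholine and lipid mediators of the leukotriene and prostaglandin families. The transcription factor Pou2f3 is required for them to form, and interleukin 13 from immune cells raises their number.

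The median tuft cell had 8138 and 7604.5 unique transcript counts (UMIs) in ketogenic libraries 1 and 2, and 7492 and 5557 in control libraries 1 and 2. Summed over the class, that gave 874921 and 858217 UMIs in the ketogenic libraries, and 582559 and 708508 UMIs in the control libraries. The tuft cells of control library 2 were thus the shallowest. Between 45 and 67 cell barcodes of each library also occurred in another library, none of them a pair of tuft cells. Scrublet called 0 tuft cells as doublets, but it called at most 0.188% of the cells of any library, too few to rely on. Each comparison of diets was therefore also computed without the 6% of cells of each library with the highest doublet scores, which include 14, 11, 7 and 12 tuft cells of ketogenic libraries 1 and 2 and control libraries 1 and 2.

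The 7 markers given for the class were at high levels in all 4 libraries. Levels in this section are CPM (UMIs of a gene scaled to the UMI total of the class in a library), as mean ± SD over the 4 libraries, and comparisons with other classes are descriptions without a test because the annotation may rest on the same genes. Rgs13, a regulator of G protein signalling, was at 2219 ± 286 CPM in tuft cells and at 13.1 CPM in the Paneth class, the next highest. Lrmp, a membrane protein of the endoplasmic reticulum, was at 1542 ± 121 CPM in tuft cells and at 18.9 CPM in the Paneth class. Both stood far above every other class in each library. Dclk1, a doublecortin-like kinase (chromosome 3, 55242364 to 55539068, plus strand, mm10), was at 734 ± 36.3 CPM in tuft cells, with 689.8 to 774 CPM across libraries, and at 12.1 CPM in the Paneth class. Avil, the actin-binding protein advillin, was at 568 ± 43.7 CPM in tuft cells and at 16.2 CPM in the Paneth class. Sh2d6, an SH2 domain protein, was at 525 ± 26.3 CPM in tuft cells and at 9.66 CPM in the Paneth class. For these genes the runner-up was the Paneth class, where the summed marker list still reached only 57.0 and 107 CPM in the ketogenic libraries and 124 and 26.5 CPM in the control libraries. In tuft cells the same sum was 6724 and 6470.4 CPM in the ketogenic libraries and 7069 and 6772 CPM in the control libraries.

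In all, 52 genes with a mean of at least 50 CPM in tuft cells were at least 10-fold above every other class, and 30 of them at least 50-fold. Among the 25 with the highest ratio were Hmx3, Ly6g6f, Alox5ap, Alox5, Hmx2, Rgs13, Spib, Ptgs1, Sh2d7, Fyb, Bmx, Pygl, Vav1, Inpp5d, Pik3cg, Gng13, Lrmp, Tspan6, Hpgds, Ltc4s, Ahnak2, Nebl, Ccdc109b and Plcb2. Hmx3 and Hmx2, a pair of homeobox transcription factors, are neighbours on chromosome 7 with 3848 bases between them. Hmx3 was at 68.5 ± 11.4 CPM in tuft cells and at 0.123 CPM in the goblet class, and Hmx2 was at 320.0 ± 38.2 CPM in tuft cells and at 1.59 CPM in the Paneth class.

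Among transcription factors, Pou2f3 (chromosome 9, 43123939 to 43210369, minus strand, mm10) was at 220.0 ± 19.4 CPM in tuft cells and at 7.56 CPM in the Paneth class, and 82.9% of all its UMIs lay in tuft cells. Spib, an Ets family factor, was at 375 ± 24.1 CPM in tuft cells and at 2.40 CPM in the Paneth class, and the zinc finger repressor Gfi1b was at 37.8 ± 7.82 CPM in tuft cells and at 0.245 CPM in the goblet class. Sox4, a factor of secretory progenitors, did not set tuft cells apart. It was at 1301 ± 141 CPM in tuft cells and at 1559 CPM in the enteroendocrine class. Atoh1, which directs the other secretory lineages, was at 14.5 ± 5.27 CPM in tuft cells and at 360.1 CPM in the goblet class.

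Pou2f3 belongs to the POU factors, which bind the octamer ATGCAAAT. That motif, read on both strands, occurred in 570 of 32851 RefSeq promoters (GRCm38.p6, 250 bases before to 50 after the start), or 1.74%. Of 117 genes of the tuft role lists and the 25 above, 96 had a promoter in the table, and 11 of their 117 promoters held the octamer (9.40%). They belonged to Hpgds, Il33, Il4ra, Itpr3, Kctd12, Ly6g6d, Nradd, Orai1, Rgs21, Sucnr1 and Tas2r108. Il33, Rgs21 and Tas2r108 had 0 UMIs in tuft cells, and of the 27 promoters of the 25 genes 1 held the octamer, that of Hpgds. The promoters of Hpgds, a prostaglandin D synthase, and Sucnr1, the succinate receptor, are shown 5′ to 3′ on the strand of the gene as examples of a match in a gene seen mostly in tuft cells here. Capitals mark the octamer, which begins at -174 and -48 from the start site. A match describes the sequence and is not evidence of binding.
Hpgds promoter, chr6:65144681-65144980, minus strand, GRCm38.p6: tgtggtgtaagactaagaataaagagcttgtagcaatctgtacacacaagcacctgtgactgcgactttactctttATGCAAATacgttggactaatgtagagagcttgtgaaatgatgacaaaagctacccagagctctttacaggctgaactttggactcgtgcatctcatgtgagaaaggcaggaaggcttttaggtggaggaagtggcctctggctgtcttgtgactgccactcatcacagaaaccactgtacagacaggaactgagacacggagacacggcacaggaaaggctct
Sucnr1 promoter, chr3:60081619-60081918, plus strand, GRCm38.p6: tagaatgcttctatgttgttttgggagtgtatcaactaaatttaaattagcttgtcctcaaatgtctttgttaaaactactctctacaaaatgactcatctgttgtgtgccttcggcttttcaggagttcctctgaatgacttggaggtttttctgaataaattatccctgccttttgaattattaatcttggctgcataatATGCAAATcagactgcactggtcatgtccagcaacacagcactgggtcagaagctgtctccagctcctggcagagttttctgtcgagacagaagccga

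Receptors for the type 2 cytokines were present. Il13ra1, a subunit of the interleukin 13 receptor, was at 584 ± 53.3 CPM in tuft cells and at 57.7 CPM in the goblet class, and its partner Il4ra was at 36.9 ± 5.46 CPM in tuft cells and at 14.0 CPM in the goblet class. Il17rb, a subunit of the interleukin 25 receptor, was at 18.1 ± 6.85 CPM in tuft cells and at 0.999 CPM in the stem class. Among sensors of metabolites, Ffar3, a receptor for short-chain fatty acids, was at 36.0 ± 5.48 CPM in tuft cells and at 1.78 CPM in the enteroendocrine class. Sucnr1 was at 13.4 ± 6.79 CPM, from 43 UMIs over all tuft cells, and 3 UMIs were seen in all other classes together. The taste receptor subunit Tas1r3 had 10 UMIs in tuft cells. Tas1r1, Tas2r108, Tas2r138, Tas2r143 and the vomeronasal receptor Vmn2r26 had 0, and so did Rgs21, a regulator of taste signalling.

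Of 20 genes of the signalling cascade below these receptors, 18 had UMIs in tuft cells, Gnat1 and Rgs21 being the others. The cation channel Trpm5 was at 301 ± 30.6 CPM in tuft cells and at 7.93 CPM in the Paneth class. The G protein subunit Gng13 was at 411 ± 39.5 CPM in tuft cells and at 4.99 CPM in the Paneth class, and the phospholipase Plcb2 was at 63.2 ± 6.53 CPM in tuft cells and at 0.990 CPM in the enteroendocrine class. Gnat3, the gustducin alpha subunit, was at 12.02 ± 3.78 CPM in tuft cells, from 35 UMIs, and at 0.130 CPM in the stem class, and the beta subunit Gnb3 had 8 UMIs. A second phospholipase, Plcg2, was at 208 ± 14.9 CPM in tuft cells and at 4.10 CPM in the enteroendocrine class. Of the inositol trisphosphate receptors, Itpr2 was at 186 ± 12.3 CPM in tuft cells and at 6.99 CPM in the stem class, whereas Itpr3 was lower in tuft cells (17.5 ± 2.58 CPM) than in the stem class (44.8 CPM).

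The genes for making leukotrienes and prostaglandin D2 stood out. Alox5ap, which presents arachidonic acid to 5-lipoxygenase, was at 869.8 ± 36.1 CPM in tuft cells and at 1.97 CPM in the goblet class. Alox5, the 5-lipoxygenase itself, was at 50.4 ± 11.3 CPM in tuft cells and at 0.233 CPM in the goblet class. Ltc4s, leukotriene C4 synthase, was at 708 ± 42.1 CPM in tuft cells and at 9.75 CPM in the Paneth class. On the prostaglandin side, Ptgs1 (cyclooxygenase 1) was at 117 ± 7.30 CPM in tuft cells and at 0.827 CPM in the Paneth class, and Hpgds was at 331 ± 38.6 CPM in tuft cells and at 4.49 CPM in the enteroendocrine class. Lta4h, which takes the alternative route to leukotriene B4, was lower in tuft cells (32.8 ± 6.58 CPM) than in enterocytes (73.2 CPM). Ptgs2 and Ptgds had 1 UMI each in tuft cells, and Ptges, Tbxas1 and Alox12 had 0.

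The secreted effectors were sparse. Il25 had 51 UMIs in tuft cells (16.8 ± 1.24 CPM) and 4 in all other classes together, and Chat, which makes acetylcholine, had 45 UMIs (14.8 ± 5.24 CPM) and 5. Each cell was thinned to 2000 UMIs to compare shares of cells at 1 depth, which left 419 tuft cells and dropped 6 of control library 2. At that depth Il25 was seen in 4.53% of tuft cells (95% exact binomial interval 2.75 to 6.99%) and in 0.0120% of enterocytes. Unthinned, the share was 11.3% of tuft cells and 0.0118% of enterocytes. Chat was seen in 2.86% of thinned tuft cells, against 0.0120% of enterocytes. The cytokine gene Tslp had 9 UMIs in tuft cells, and Il33, Il13 and Penk had 0.

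Genes better known from blood cells and from the brush border completed the profile. Vav1, an exchange factor for small GTPases, was at 202 ± 32.7 CPM in tuft cells and at 2.16 CPM in the goblet class, and the adaptor Fyb was at 529 ± 58.3 CPM, against 4.36 CPM in the transit amplifying class. Espn, which bundles actin in microvilli, was at 827 ± 6.42 CPM in tuft cells and at 21.9 CPM in the Paneth class, while villin (Vil1) differed less, with 272 ± 23.3 CPM in tuft cells and 171 CPM in the enteroendocrine class. Siglecf and Cd300lf, surface receptors also found on immune cells, were at 33.2 ± 8.24 CPM and 27.8 ± 2.13 CPM in tuft cells, against 0.0751 and 0.146 CPM in the stem class. Ptprc, the leukocyte antigen CD45, was at 3.36 ± 0.782 CPM, from 10 UMIs. The 8 lymphocyte markers summed to 2 UMIs in all tuft cells, and the 5 markers of fibroblasts and endothelium had 0. Of the B cell, macrophage and mast cell lists, Cd79b, Lyz2 and Kit alone had UMIs in tuft cells. Their levels were 12.1, 4.36 and 89.6 CPM. Lyz2 had 13 and 1 UMIs in ketogenic libraries 1 and 2, and 0 and 1 in control libraries 1 and 2. Kit was also at 52.7 CPM in the enteroendocrine, 56.4 CPM in the goblet and 55.8 CPM in the Paneth class.

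**Figure D1:**
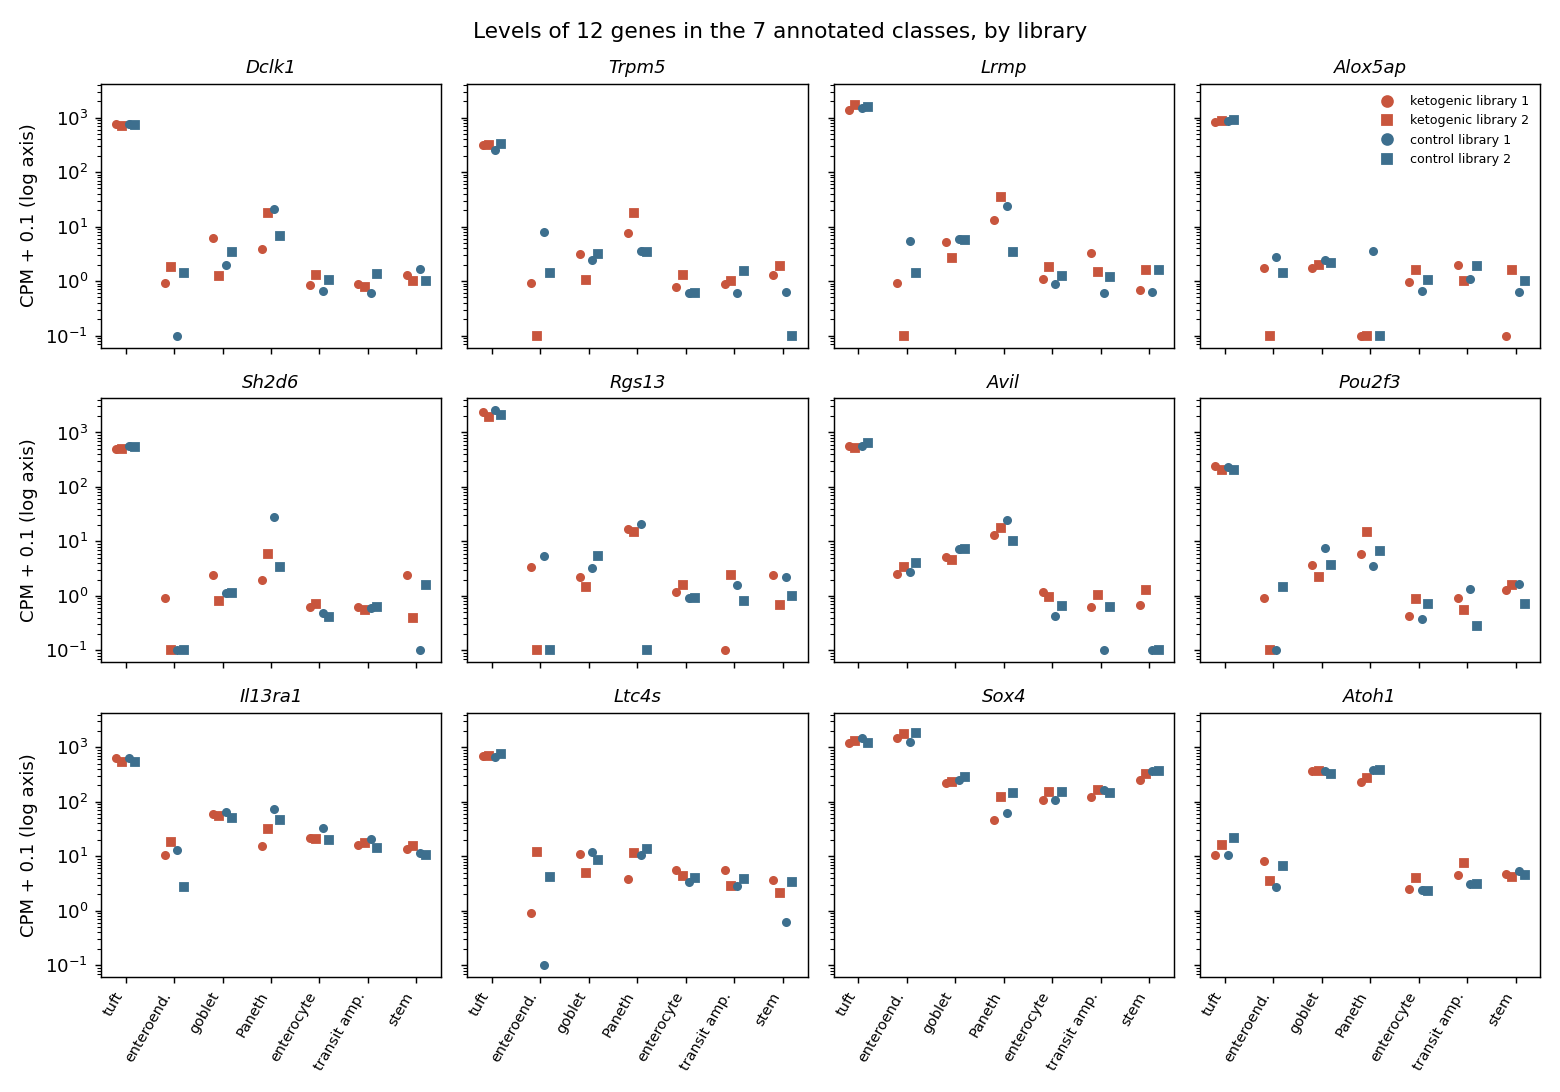
Levels of 12 genes in each of the 7 classes, in CPM + 0.1 on a log axis, with 1 point per library (red ketogenic, blue control; circle library 1, square library 2). Points at 0.1 are 0 CPM. The 7 markers, Pou2f3, Il13ra1 and Ltc4s were highest in tuft cells in every library, Sox4 was as high in enteroendocrine cells, and Atoh1 was higher in goblet and Paneth cells.

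Tuft cells differed among themselves in how many of the 7 markers they showed. At 2000 UMIs the median tuft cell had a UMI of 5 markers, 285 of 419 cells (68.0%) had at least 4, 47 had all 7, and 14 had 0. Of all other cells, 2 had at least 4 markers, both in the Paneth class. Tuft cells with 0 to 2, 3 to 4 and 5 to 7 markers numbered 84, 105 and 230. Ketogenic libraries 1 and 2 had 22.4% and 22.2% of their tuft cells in the lowest band, and control libraries 1 and 2 had 21.5% and 14.7%.

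Other genes moved along these bands, given here per 1000 UMIs from low to high and without a test. Sox4 was at 2.99, 1.37 and 0.691 UMIs, highest where the fewest markers were seen. The keratin Krt18 had 1.55, 2.70 and 4.58 UMIs and Adh1, an alcohol dehydrogenase, had 0.536, 1.36 and 2.08 UMIs, both highest where the most markers were seen. Pou2f3, in contrast, was at 0.196, 0.238 and 0.211 UMIs. Cells with few markers were therefore not lacking Pou2f3, and they held more Sox4 in each of the 4 libraries.

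Over the 4 libraries together, the low band also held more transcripts of other secretory cells. The 7 goblet markers summed to 3.80, 2.75 and 1.77 UMIs per 1000 in the bands, and Mmp7, a product of Paneth cells, to 0.262, 0.0714 and 0.0217 UMIs. The share of cells among the 6% with the highest doublet scores was 21.4%, 9.52% and 6.96% from the low to the high band. In ketogenic library 1 the goblet sum was highest in the middle band. How far mixed droplets or free RNA enter the low band was not tested. In 28 and 16 tuft cells of ketogenic libraries 1 and 2, and in 16 and 22 of control libraries 1 and 2, the goblet list had more UMIs than the tuft list. Tff3, the trefoil peptide of goblet cells, was seen in 67.1% of thinned tuft cells and in 36.2% of enterocytes.

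**Figure D2:**
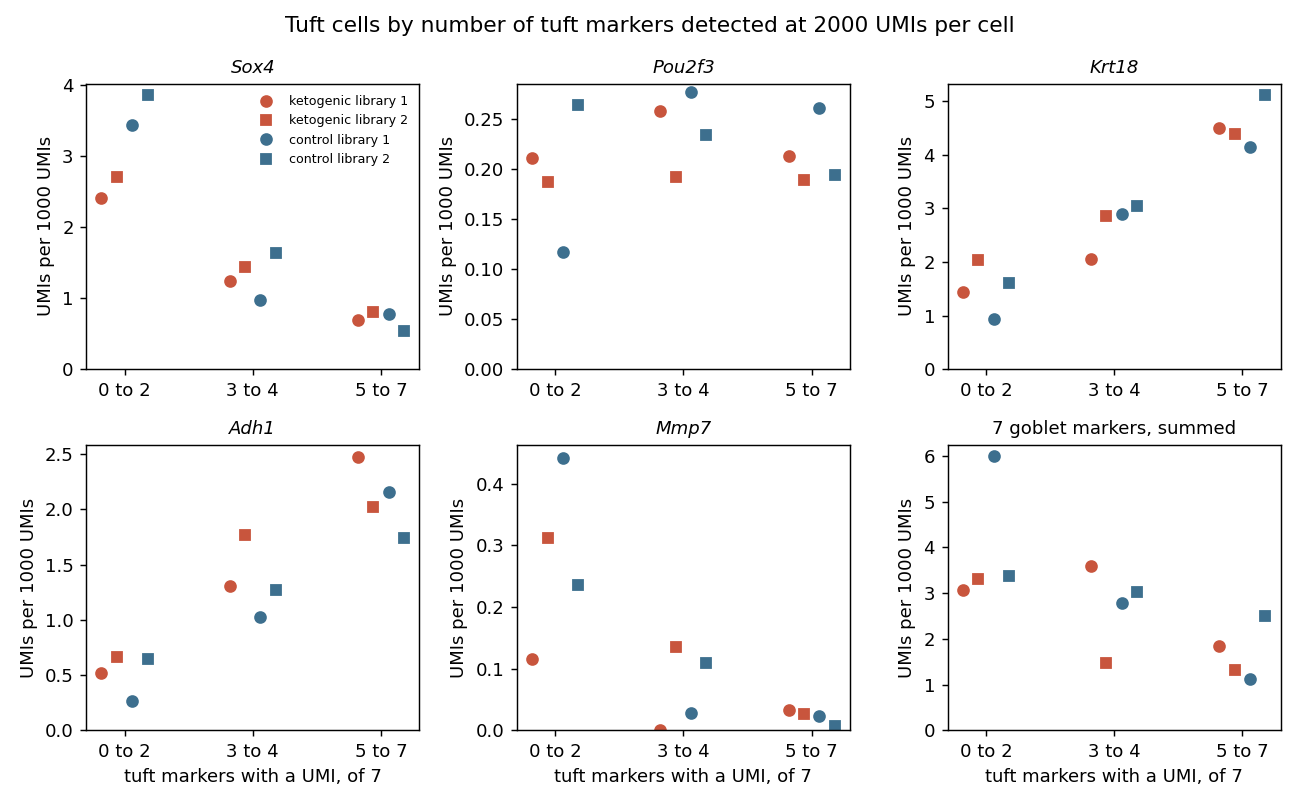
UMIs per 1000 UMIs of 5 genes and of the summed 7 goblet markers in tuft cells with 0 to 2, 3 to 4 or 5 to 7 of the 7 tuft markers, 1 point per library, all cells thinned to 2000 UMIs. In each library Sox4 and Mmp7 were highest in the low band and Krt18 and Adh1 in the high band, the goblet sum was highest in the low band except in ketogenic library 1, and Pou2f3 had no such order.

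Genes used to name neuronal and immune kinds of tuft cell were both present. Of the neuronal list, Nrep, seen in 30.1% of thinned tuft cells and 0.264% of enterocytes, was at 238 ± 60.2 CPM, and Nrgn, neurogranin, was at 57.2 ± 18.4 CPM. Of the immune list, Rac2, a small GTPase of blood cells, was at 35.6 ± 6.31 CPM in tuft cells and at 0.449 CPM in the enterocyte class, and Irf7, an interferon regulatory factor, was at 60.5 ± 29.2 CPM in tuft cells and at 29.4 CPM in the goblet class.

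Few tuft cells showed proliferation markers. At least 2 of 5 proliferation markers were seen in 1 and 2 tuft cells of ketogenic libraries 1 and 2, and in 1 and 0 of control libraries 1 and 2. Among transit amplifying cells the share was 46.2% and 43.3% in the ketogenic libraries and 51.6% and 47.3% in the control libraries. The stem cell gene Ascl2 was at 117 ± 17.0 CPM in tuft cells and at 123 CPM in the stem class. The other stem markers listed were all lower in tuft cells than in the stem class. Lgr5 was at 22.8 CPM in tuft cells against 204 CPM in the stem class, and Olfm4 at 22.8 against 100.2 CPM. Slc12a2 was at 119.8 against 792 CPM, Axin2 at 19.3 against 214 CPM and Gkn3 at 22.2 against 337 CPM.

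The first comparison between diets concerned the number of tuft cells. They made up 3.63% (95% exact binomial interval 3.01 to 4.34%) and 3.16% (2.60 to 3.81%) of the captured cells in ketogenic libraries 1 and 2. In control libraries 1 and 2 they made up 2.23% (1.77 to 2.77%) and 2.49% (2.07 to 2.97%). Both ketogenic shares lay above both control shares. The log2 ratio was 0.52 ± 0.16 (SE), and it did not pass after adjustment over the 7 classes (adjusted p = 0.207 by edgeR). Intervals cover counting error only. Of the secretory cells alone (tuft, goblet, Paneth and enteroendocrine), tuft cells made up 13.9% and 14.8% in the ketogenic libraries and 12.4% and 13.7% in the control libraries, a log2 ratio of 0.13 with an adjusted p of 0.592 by edgeR.

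The second comparison asked which genes differed with diet within tuft cells. Of 6963 genes tested, 1 passed an adjusted p of 0.05 by edgeR's quasi-likelihood test (0.0144%), a rise, and 372 had an unadjusted p under 0.05 (5.34%). DESeq2 called 3 genes (0.0223% of 13479), and without any filter on low counts edgeR called 0, with 473 at an unadjusted p under 0.05. The diets did not overlap for 34.1% of genes, the share higher in ketogenic tuft cells being 17.5% and the share lower 16.5%. CPM in the comparison of diets use TMM-adjusted library sizes, and fold changes are log2 with SE (n = 2 libraries per diet).

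None of the genes that define tuft cells passed the test. Dclk1 was at 771 and 694 CPM in ketogenic libraries 1 and 2, against 794 and 751 CPM in control libraries 1 and 2, -0.076 ± 0.10 on the log2 scale (edgeR adjusted p = 0.981). Rgs13 was at 2439.5 and 1909.5 CPM in ketogenic libraries 1 and 2, against 2598 and 2158 CPM in control libraries 1 and 2 (-0.13 ± 0.12, adjusted p = 0.965). The libraries of the diets overlapped for both. Alox5ap was at 855 and 859 CPM in ketogenic libraries 1 and 2, against 904 and 951 CPM in control libraries 1 and 2 (-0.12 ± 0.097, adjusted p = 0.965), and both ketogenic values lay just under both control values.

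The other markers were as close. The log2 fold change was 0.047 ± 0.14 for Trpm5, -0.0072 ± 0.098 for Lrmp, -0.14 ± 0.11 for Sh2d6 and -0.17 ± 0.11 for Avil, with adjusted p from 0.921 to 1.00 by edgeR. Sh2d6 and Avil, like Alox5ap, were lower in both ketogenic libraries than in both control libraries. Of the 7 markers 6 were lower (51.0% of all genes tested), 3 of them with no overlap (16.5% of all genes tested). Pou2f3 was at 248 and 205 CPM in ketogenic libraries 1 and 2, against 238 and 211 CPM in control libraries 1 and 2 (0.017 ± 0.15). Gfi1b and Hmx2 were higher in both ketogenic libraries than in both control libraries without passing (0.49 ± 0.26 and 0.20 ± 0.13, adjusted p = 0.889 and 0.921 by edgeR). None of these p-values shows that a gene had no diet effect.

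By role, 0 of 13 transcription factors, 0 of 6 receptors, 0 of 16 cascade genes, 0 of 7 eicosanoid genes, 0 of 2 effectors and 0 of 30 cytoskeleton and adaptor genes tested passed. Their median log2 fold changes were -0.029, -0.072, -0.0088, -0.12, -0.020 and -0.10, against -0.0045 over all genes tested. All 7 eicosanoid genes tested were lower in ketogenic tuft cells, at most by 0.50 on the log2 scale for Alox5 (-0.50 ± 0.25), whose level was 50.6 and 35.2 CPM in ketogenic libraries 1 and 2, against 58.1 and 63.1 CPM in control libraries 1 and 2. Of the cytoskeleton and adaptor genes 26 of 30 were lower (51.0% of all genes tested), 10 of them with no overlap (16.5% of all genes tested). Hebp1, a heme-binding protein of that list, was at 146 and 130.2 CPM in ketogenic libraries 1 and 2, against 144 and 333 CPM in control libraries 1 and 2, so that control library 2 stood alone, and its log2 fold change of -0.82 ± 0.27 was -0.063 without that library. Sucnr1 was at 16.5 and 18.8 CPM in ketogenic libraries 1 and 2, against 3.52 and 16.1 CPM in control libraries 1 and 2 (0.75 ± 0.53), with 2 UMIs in control library 1, and 0.13 without that library and 2.27 without control library 2. Il25 was at 17.6 and 16.4 CPM in ketogenic libraries 1 and 2, against 15.9 and 19.1 CPM in control libraries 1 and 2 (-0.047 ± 0.38).

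None of the genes tested in the 4 lists of fat and ketone body use passed, and the lists differed in direction. Of 37 PPAR target genes, which fatty acid sensing receptors of the PPAR family induce, 22 were tested, 18 were higher (49.0% of all genes tested), 0 passed, 5 were higher at an unadjusted p under 0.05 (2.59% of all genes tested), and the median log2 fold change was 0.30. Acot1, which frees fatty acids from coenzyme A and lies on mm10 chromosome 12, 84009490 to 84018371, plus strand, was at 119.9 and 92.7 CPM in ketogenic libraries 1 and 2, against 40.5 and 33.7 CPM in control libraries 1 and 2. The diets were far apart, at 1.52 ± 0.24 on the log2 scale, which narrowly missed the threshold (edgeR adjusted p = 0.0667). It passed in 8 of 12 alternatives and did not without control library 2 (adjusted p = 0.149).

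Mgll, the monoglyceride lipase, was at 38.8 and 39.9 CPM in ketogenic libraries 1 and 2, against 21.1 and 14.7 CPM in control libraries 1 and 2 (1.15 ± 0.32, adjusted p = 0.685 by edgeR). Eci2, an enoyl-CoA isomerase, was at 149 and 143 CPM in ketogenic libraries 1 and 2, against 79.3 and 103 CPM in control libraries 1 and 2 (0.67 ± 0.18, adjusted p = 0.644). For both, each ketogenic library lay above each control library. Hadhb and Acadl, a thiolase and an acyl-CoA dehydrogenase of mitochondrial beta-oxidation, had log2 fold changes of 0.63 ± 0.22 and 0.46 ± 0.20, and Cpt1a, which admits fatty acids to mitochondria, had one of 0.31 ± 0.29 with overlapping libraries. With 1 library left out these ran over 0.30 (without control library 1) to 1.14 (without control library 2) for Hadhb, 0.27 to 0.72 for Acadl without the same libraries, and 0.081 (without ketogenic library 1) to 0.53 (without ketogenic library 2) for Cpt1a. Over the mitochondrial fatty acid oxidation list 17 of 20 genes tested were higher (49.0% of all genes tested), 3 of them at an unadjusted p under 0.05 (2.59% of all genes tested), with a median of 0.12. The list shares members with that of PPAR targets. Of 4 genes of fatty acid sensing and uptake tested 2 were higher, with a median of 0.18. Of 5 genes of ketone body use and transport tested 1 was higher (49.0% of all genes tested), and 2 were lower with no overlap (16.5% of all genes tested), with a median of -0.22. One of these was Aacs, which activates acetoacetate, at 17.6 and 12.9 CPM in ketogenic libraries 1 and 2, against 19.4 and 32.3 CPM in control libraries 1 and 2 (-0.78 ± 0.38, adjusted p = 0.871 by edgeR). Creb3l3, Ifit1 and Pdk4 had too few UMIs in tuft cells to be tested.

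Most of the genes of carbohydrate use tested were lower, and 0 passed. Sis, the brush border sucrase, was at 7.05 and 2.35 CPM in ketogenic libraries 1 and 2, against 28.2 and 16.1 CPM in control libraries 1 and 2 (-2.17 ± 0.59, adjusted p = 0.644 by edgeR). That fold change rested on few UMIs, 6 and 2 in the ketogenic libraries and 16 and 11 in the control libraries. Sis is an enterocyte gene, and its level in tuft cells was 10.1% and 4.80% of that in enterocytes in the ketogenic libraries and 4.63% and 3.59% in the control libraries. Over the enterocyte marker list, the summed level in tuft cells was 624 and 526 CPM in ketogenic libraries 1 and 2, against 235 and 631 CPM in control libraries 1 and 2, with overlapping diets. The part of enterocyte RNA in its difference was not tested. Pkm, pyruvate kinase, was at 199.9 and 195 CPM in ketogenic libraries 1 and 2, against 229 and 298 CPM in control libraries 1 and 2 (-0.42 ± 0.15). Of 7 genes of carbohydrate digestion and transport tested 6 were lower, 2 of them at an unadjusted p under 0.05 (2.76% of all genes tested), with a median of -0.41. Of 12 glycolysis genes tested 9 were lower and 0 passed, with a median of -0.16.

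Of 14 unfolded protein response genes tested 10 were lower in ketogenic tuft cells (51.0% of all genes tested), 8 of them with no overlap (16.5% of all genes tested), 0 passed, and the median was -0.31. Hspa5, the chaperone BiP of the endoplasmic reticulum, was at 227 and 182 CPM in ketogenic libraries 1 and 2, against 301 and 389 CPM in control libraries 1 and 2 (-0.76 ± 0.16, adjusted p = 0.253 by edgeR). It passed without ketogenic library 1 (-0.92) or control library 1 (-0.92). Of cytosolic chaperones, outside that list, Hsp90aa1, the inducible cytosolic HSP90, was at 692 and 629.9 CPM in ketogenic libraries 1 and 2, against 976 and 1083 CPM in control libraries 1 and 2 (-0.64 ± 0.10, adjusted p = 0.0691 by edgeR). It passed in 8 of 12 alternatives, DESeq2 included (adjusted p = 0.0178), and not without control library 2 (adjusted p = 0.174). The ketogenic libraries lay under the control libraries for both Hspa5 and Hsp90aa1. Dnaja1, a cochaperone, and Hspa8, the constitutive cytosolic HSP70, had log2 fold changes of -0.53 ± 0.12 and -0.34 ± 0.078 with no overlap and did not pass (adjusted p = 0.446 and 0.436 by edgeR). Hspa8 passed without ketogenic library 1 (-0.34), and Dnaja1 and Scd2 without ketogenic library 2 (-0.64 and -1.59). Hsp90aa1, Hspa8, Dnaja1 and Scd2, a fatty acid desaturase at 25.9 and 37.5 CPM in ketogenic libraries 1 and 2, against 91.6 and 67.5 CPM in control libraries 1 and 2 (-1.31 ± 0.27, adjusted p = 0.247), were picked for their low p after the values were seen, as was Agr2.

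Goblet markers were lower for 5 of the 6 tested (51.0% of all genes tested), and 0 passed. Spink4, a goblet marker, was at 226 and 141 CPM in ketogenic libraries 1 and 2, against 437 and 355 CPM in control libraries 1 and 2 (-1.11 ± 0.19, adjusted p = 0.0749 by edgeR). It passed in 9 of 12 alternatives, but its log2 fold change was -0.56 without the cells of highest doublet scores and -0.68 with only cells under 10% mitochondrial UMIs. Fcgbp, another goblet marker, had a log2 fold change of -0.77 ± 0.16, -0.24 without the cells of highest doublet scores, and -0.96 without control library 2, where it passed. Over the goblet marker list, the summed level in tuft cells was 2737 and 1622 CPM in ketogenic libraries 1 and 2, against 2271 and 3033 CPM in control libraries 1 and 2, and in enterocytes it was 539 and 499 CPM in the ketogenic libraries and 483 and 562 CPM in the control libraries. All 7 goblet markers had UMIs in tuft cells, and the goblet sums of the diets overlapped. Cd74, the MHC class II invariant chain, was at 2.35 and 17.6 CPM in ketogenic libraries 1 and 2, against 111 and 14.7 CPM in control libraries 1 and 2 (-2.56 ± 0.78, adjusted p = 0.853), and -0.55 without control library 1. Agr2, a goblet disulfide isomerase, was at 107 and 85.6 CPM in ketogenic libraries 1 and 2, against 113 and 327 CPM in control libraries 1 and 2 (-1.22 ± 0.34), and -0.22 without control library 2. Both differences rested on the library named.

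Of 7 MHC class I genes tested 6 were lower, 4 of them with no overlap (16.5% of all genes tested), and 0 passed, with a median of -0.23. Psmb8, an immunoproteasome subunit of that list, was at 41.1 and 52.8 CPM in ketogenic libraries 1 and 2, against 72.2 and 61.6 CPM in control libraries 1 and 2 (-0.50 ± 0.24, adjusted p = 0.871 by edgeR). Of 11 interferon response genes tested 8 were lower and 0 passed, with a median of -0.35. Rtp4, a chaperone protein induced by interferon, was at 18.8 and 23.5 CPM in ketogenic libraries 1 and 2, against 38.8 and 36.7 CPM in control libraries 1 and 2 (-0.83 ± 0.30, adjusted p = 0.871 by edgeR). Of 20 cholesterol synthesis genes tested 14 were lower and 0 passed, with a median of -0.22. Nrep was higher, at 287 and 301 CPM in ketogenic libraries 1 and 2, against 201 and 185 CPM in control libraries 1 and 2 (0.61 ± 0.14, adjusted p = 0.391 by edgeR), and passed without control library 1 (0.67).

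**Figure D3:**
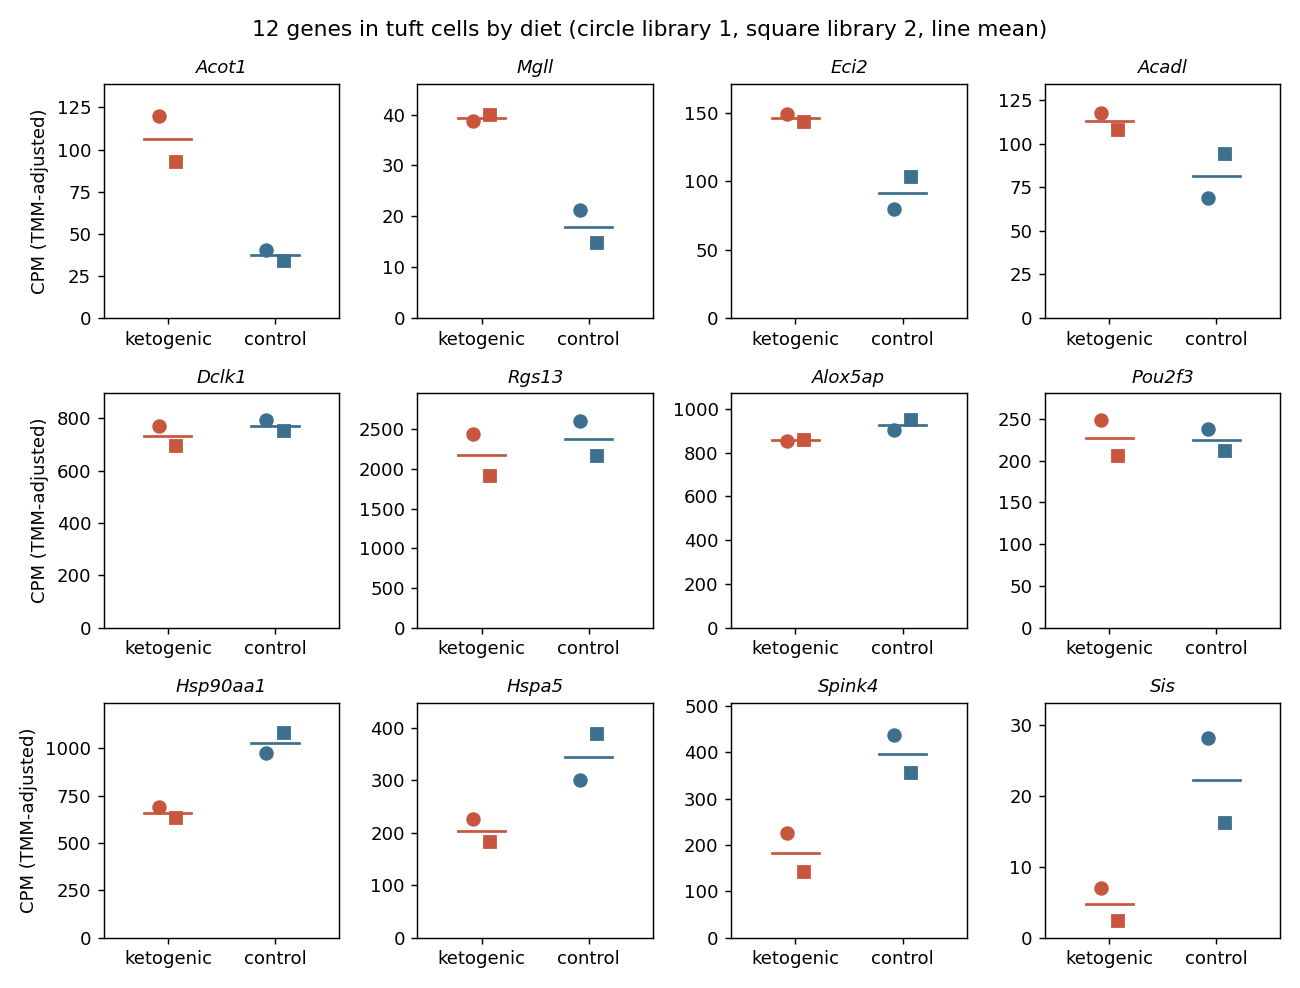
TMM-adjusted CPM of 12 genes in tuft cells of the 2 ketogenic and the 2 control libraries (circle library 1, square library 2, line the mean of a diet), each on its own axis from 0. Acot1, Mgll, Eci2 and Acadl were higher in both ketogenic libraries, Hsp90aa1, Hspa5, Spink4 and Sis were lower in both, and Dclk1, Rgs13 and Pou2f3 overlapped. None of the 12 passed an adjusted p of 0.05.

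The third comparison asked whether the diet effect in tuft cells differed from that in enterocytes, the absorptive cells, in 1 fit of both classes with library as a block. Of 11806 genes 24 passed (0.203%), with the tuft effect higher for 10 and lower for 14, and 646 had an unadjusted p under 0.05. Fabp1, the liver-type fatty acid binding protein (chromosome 6, 71199827 to 71205023, plus strand, mm10), was at 403 and 308 CPM in ketogenic libraries 1 and 2, against 84.6 and 357 CPM in control libraries 1 and 2 in tuft cells, so the diets overlapped. At 2000 UMIs it was seen in 42 of 116 and 27 of 108 tuft cells of the ketogenic libraries and in 7 of 79 and 18 of 116 of the control libraries, against 50.9% of all enterocytes. Leaving out control library 1 gave a tuft log2 fold change of 0.00021. It passed when control library 2 (2.07) or ketogenic library 2 (0.85) was left out. In enterocytes it was at 6788 and 3117 CPM in ketogenic libraries 1 and 2, against 769.8 and 867 CPM in control libraries 1 and 2. Within enterocytes that rise narrowly missed the threshold (adjusted p = 0.0518 by edgeR). The tuft level was 5.97% and 9.55% of the enterocyte level in the ketogenic libraries and 10.6% and 39.8% in the control libraries, and the part of enterocyte RNA in it was not tested. The log2 fold change was 0.65 in tuft cells and 2.60 in enterocytes, and the difference of -1.73 ± 0.21 passed (adjusted p = 1.30e-12 by edgeR). It was not past the threshold without control library 2 (-0.51) or ketogenic library 1 (-1.29).

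Tm4sf4, a tetraspan membrane protein (chromosome 3, 57425314 to 57441677, plus strand, mm10), gave the difference with the lowest p. It was at 736 and 759 CPM in ketogenic libraries 1 and 2, against 519.7 and 653 CPM in control libraries 1 and 2 in tuft cells. In enterocytes it was at 28.6 and 23.1 CPM in ketogenic libraries 1 and 2, against 3.27 and 7.504 CPM in control libraries 1 and 2. The tuft levels lay far above the enterocyte levels under either diet. Within enterocytes the rise of Tm4sf4 did not pass (adjusted p = 0.0689 by edgeR). The part of RNA from other cells in its enterocyte levels was not tested. The log2 fold change was 0.35 in tuft cells and 2.25 in enterocytes, a difference of -1.92 ± 0.20 (adjusted p = 2.44e-17 by edgeR) that passed in all 7 alternatives, between -2.41 and -1.59.

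Acot1 was higher in both ketogenic libraries in tuft cells and in enterocytes, and the effects differed in size. Its log2 fold change was 1.52 in tuft cells and 2.88 in enterocytes, a difference of -1.32 ± 0.30 (adjusted p = 0.00929 by edgeR). In enterocytes it was at 307 and 179.6 CPM in ketogenic libraries 1 and 2, against 24.7 and 41.3 CPM in control libraries 1 and 2. Mgll in enterocytes was at 10.2 and 7.10 CPM in ketogenic libraries 1 and 2, against 0.327 and 0.517 CPM in control libraries 1 and 2. Its log2 fold change was 1.15 in tuft cells and 4.32 in enterocytes, a difference of -3.12 ± 0.60 (adjusted p = 2.74e-04) whose size is uncertain because the control enterocytes lay under 1 CPM. Slc25a20, the mitochondrial carnitine carrier, had log2 fold changes of 0.11 in tuft cells and 1.33 in enterocytes (-1.22 ± 0.29, adjusted p = 0.0120). Within enterocytes the rise passed for Acot1 and Mgll (adjusted p = 0.0366 and 0.0101 by edgeR) and not for Slc25a20 (0.120). For Acadl, Eci2, Hadhb and Cpt1a the difference did not pass, at -0.39 ± 0.23, -0.067 ± 0.22, 0.00013 ± 0.17 and -0.67 ± 0.33 (adjusted p from 0.882 to 1.00 by edgeR).

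The genes named here with the higher tuft effect all had a log2 fold change below 0 in enterocytes. Pkm had log2 fold changes of -0.42 in tuft cells and -1.33 in enterocytes (0.92 ± 0.20, adjusted p = 0.00235 by edgeR), and Smim24, a small membrane protein, had log2 fold changes of -0.23 in tuft cells and -1.20 in enterocytes (0.96 ± 0.20). Fdft1, squalene synthase of the cholesterol pathway, had log2 fold changes of 0.090 in tuft cells and -1.04 in enterocytes (1.13 ± 0.24, adjusted p = 0.00213). Sepp1, the plasma selenium carrier, had log2 fold changes of 0.018 in tuft cells and -1.32 in enterocytes (1.33 ± 0.22), Sema4a, a semaphorin, log2 fold changes of 0.85 in tuft cells and -0.35 in enterocytes (1.20 ± 0.29), and Pttg1, securin of the cell cycle, log2 fold changes of 0.84 in tuft cells and -0.98 in enterocytes (1.75 ± 0.41). In tuft cells Fdft1 and Sepp1 were level, with log2 fold changes near 0. Within enterocytes the fall passed for Pkm (adjusted p = 0.0101 by edgeR) and not for the other genes named here. The diets overlapped in enterocytes for Sema4a and Pttg1. Sepp1 in enterocytes was at 34.1 and 17.9 CPM in ketogenic libraries 1 and 2, against 36.0 and 93.2 CPM in control libraries 1 and 2.

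Lower effects in tuft cells than in enterocytes were found for St3gal4, a sialyltransferase (-2.55 ± 0.61), the trypsin inhibitor Spink1 (-1.89 ± 0.43), Agr2 (-1.17 ± 0.21), Fcgbp (-1.08 ± 0.20), Spink4 (-1.04 ± 0.19) and Hebp1 (-1.01 ± 0.21). St3gal4 rested on few tuft UMIs, 3 and 2 in the ketogenic libraries and 10 and 20 in the control libraries. Spink1 had 6 and 5 tuft UMIs in the ketogenic libraries and 65 and 17 in the control libraries, and its difference was -0.92 without control library 1. Without the cells of highest doublet scores the calls of Agr2 (-0.37), Fcgbp (-0.63), Spink4 (-0.51) and St3gal4 (-1.11) were lost.

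Leaving out 1 library left few of these calls. Apart from Tm4sf4, calls of all the genes named were lost in at least 1 such fit. Without ketogenic library 1 those kept were Tm4sf4 and Sepp1, and without ketogenic library 2 Tm4sf4, Fabp1 and Mgll. Without control library 1 the differences of Acot1 (-0.90), Fdft1 (0.98), Pkm (0.68), Pttg1 (0.64), Fcgbp (-0.73), Mgll (-2.61) and Spink1 (-0.92) were not past the threshold. Without control library 2 those of Sepp1 (0.60), Slc25a20 (-0.92), St3gal4 (-1.53), Hebp1 (-0.69) and Agr2 (-0.34) were not. Sema4a was not past it in any of the 4. With only cells under 10% mitochondrial UMIs, the calls of Tm4sf4, Fabp1, Mgll and Agr2 were kept. Those of Acot1 (-1.34), Slc25a20 (-1.32), Pkm (0.93), Smim24 (0.92), Fdft1 (1.03), Sepp1 (1.20), Sema4a, Pttg1, St3gal4, Spink1, Spink4, Fcgbp and Hebp1 were lost, with 4 of the 24 calls left in all.

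**Figure D4:**
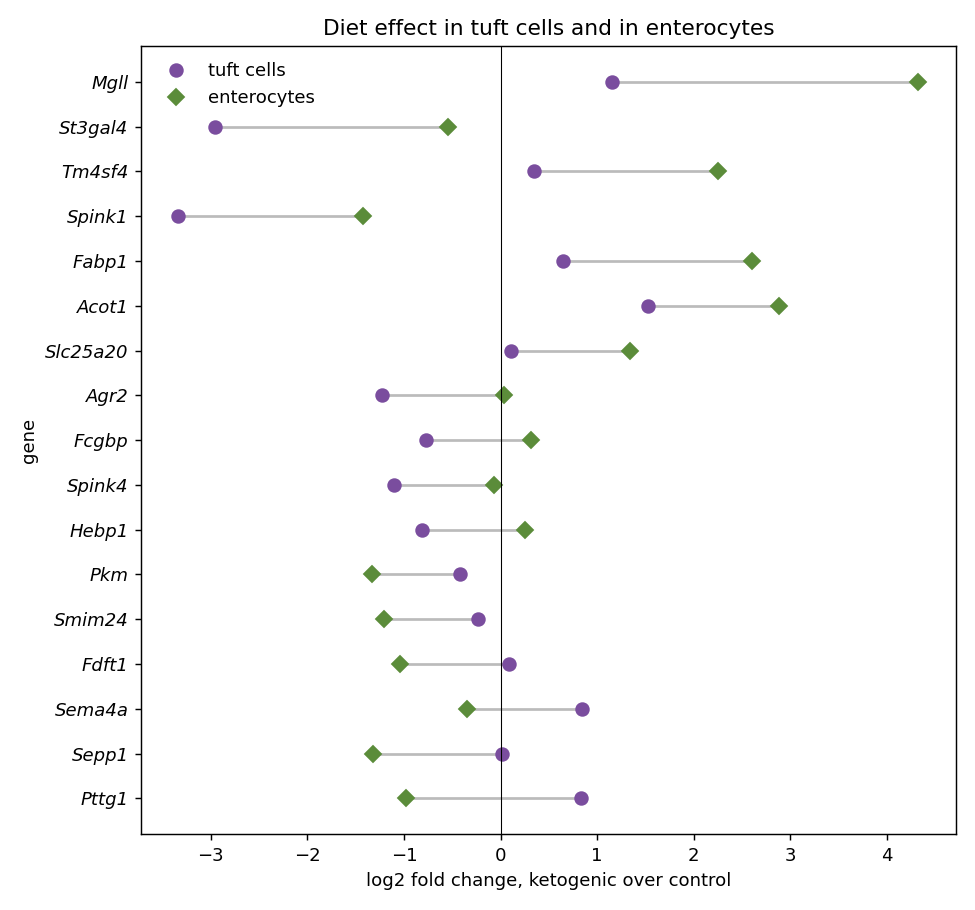
Log2 fold change, ketogenic over control, in tuft cells (circles) and enterocytes (diamonds) of 17 genes whose difference in diet effect passed an adjusted p of 0.05, ordered by that difference, the tuft effect being the lower one at the top. Mgll, Tm4sf4, Fabp1, Acot1 and Slc25a20 lie further right in enterocytes, and Pkm, Smim24, Fdft1 and Sepp1 lie further left there.

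Set against goblet cells, the other common secretory class, 6 of 10148 genes differed in diet effect (0.0591%), with the tuft effect the lower one for each, and 484 had an unadjusted p under 0.05. Fabp1 in goblet cells was at 369 and 251 CPM in ketogenic libraries 1 and 2, against 51.7 and 47.5 CPM in control libraries 1 and 2. Its log2 fold change was 0.65 in tuft cells and 2.64 in goblet cells, a difference of -1.93 ± 0.29 (adjusted p = 9.25e-04 by edgeR), and -0.49 without control library 2, where it was not past the threshold. Tm4sf4 in goblet cells was at 373 and 299.8 CPM in ketogenic libraries 1 and 2, against 114 and 161 CPM in control libraries 1 and 2, with a difference of -0.95 ± 0.13 (adjusted p = 8.84e-04). C2cd4b, a C2 domain protein, had log2 fold changes of 0.16 in tuft cells and 1.94 in goblet cells (-1.78 ± 0.36, adjusted p = 0.0496, and -0.73 without ketogenic library 2).

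Spink4 differed by -1.05 ± 0.16 and St3gal4 by -3.25 ± 0.60 between tuft and goblet cells, and Spink1, whose mean level lay under the limit set for named genes, by -2.64 ± 0.50. Without ketogenic library 1 the call of C2cd4b alone was kept, and without ketogenic library 2 none of the 6 was. Without control library 1 the call of Spink1 was lost (-1.76), and without control library 2 that of St3gal4 (-2.59) as well as that of Fabp1. The values of Spink4, St3gal4 and Spink1 without the cells of highest doublet scores were -0.50, -2.08 and -2.63, none past the threshold. With only cells under 10% mitochondrial UMIs, 5 of the 6 calls were kept, and that of Spink4 was lost.

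Set against enteroendocrine cells, 1 of 8037 genes differed (0.0124%), and 300 had an unadjusted p under 0.05. This was Agr2, which in enteroendocrine cells was at 222 and 191 CPM in ketogenic libraries 1 and 2, against 92.3 and 201 CPM in control libraries 1 and 2, with a difference of -1.69 ± 0.22 (adjusted p = 0.00255 by edgeR). It was not past the threshold without either ketogenic library (-1.74 and -1.63) or without the cells of highest doublet scores (-0.83). The diet effects of Acot1, Mgll and the beta-oxidation genes in tuft cells were not shown to differ from those in enteroendocrine cells. The difference was 0.13 ± 0.37 for Acot1, 0.96 ± 0.41 for Mgll, -0.31 ± 0.34 for Acadl and -0.23 ± 0.23 for Eci2 (adjusted p = 1.00 for each by edgeR). Tm4sf4, unlike in the comparisons with enterocytes and goblet cells, did not pass here. Its log2 fold change was 0.35 in tuft cells and 0.31 in enteroendocrine cells, a difference of 0.040 ± 0.19. In enteroendocrine cells it was at 1562 and 1207 CPM in ketogenic libraries 1 and 2, against 1066 and 1164 CPM in control libraries 1 and 2.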

How the data were processed

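Single cells from mouse small intestine were measured in 4 libraries, 2 per diet, grouped by the diet in the labels. The deposited values are raw UMI counts per gene and cell, made with Cell Ranger 2.1.0 against mm10 per the submitters' processing notes, and the cell classes are those of the authors' deposited cell table. Counts of 27998 genes were summed per library and class. Diets were compared with edgeR 4.0.16 (R 4.3.3; quasi-likelihood test, TMM, filter on low counts by diet, Benjamini-Hochberg adjustment, threshold 0.05), and differences between classes in 1 fit with library as a block. DESeq2 1.42.0 was an alternative. The share of cells was tested with edgeR over the 7 classes. The fit of diets within tuft cells was tried on simulated counts, and the fits between classes and of the share of cells were not. Cells were thinned to 2000 UMIs for shares of cells and marker bands, and doublets were scored with Scrublet in scanpy 1.11.5 (Python 3.11.15).

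Genes named are the 7 markers, the 25 genes with the highest ratio to any other class, members of the tuft role lists, the members of each other list that passed or else up to 2 with the lowest p, a fixed set of diet genes, and the 6 largest differences in each direction between classes among genes averaging at least 5 in log2 CPM. Others were chosen after their values were seen: Hsp90aa1, Hspa8, Dnaja1, Scd2 and Agr2 in the comparison of diets, Mgll, Agr2, Fcgbp, Spink4, Hebp1 and the beta-oxidation genes in that with enterocytes, and Spink1 in that with goblet cells. The members and lists were chosen with earlier results of these data known. The 1 gene that passed in the comparison of diets within tuft cells and some genes that the rule names are not reported here. Alternatives are other normalizations, filters on genes and cells, thinned sums, a replicate block, and each library left out in turn. The smallest exact two-sided permutation p with 2 against 2 libraries is 0.33.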

Additional observations from a re-analysis of the deposited data

Results flagged for a closer look

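The results below stood out because the diet effect in tuft cells differed from that in another class by a test of the difference itself. Against enterocytes the difference in log2 fold change was -2.55 for St3gal4, -1.92 for Tm4sf4, -1.89 for Spink1, -1.73 for Fabp1, -1.32 for Acot1 and -1.22 for Slc25a20, the tuft effect being the lower one. It was 0.92 for Pkm, 0.96 for Smim24, 1.13 for Fdft1, 1.20 for Sema4a, 1.33 for Sepp1 and 1.75 for Pttg1, the tuft effect being the higher one. Against enteroendocrine cells it was -1.69 for Agr2. Against goblet cells it was -3.25 for St3gal4, -1.93 for Fabp1, -1.78 for C2cd4b, -1.05 for Spink4 and -0.95 for Tm4sf4. Of these, the difference of Tm4sf4 from enterocytes alone kept its call with each library left out in turn.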

How the results depend on the processing

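With 2 libraries per diet, the count of genes that passed in tuft cells (1 as reported) was 3 with DESeq2, 4 with RLE size factors, 0 with no filter on low counts, 2 with cells under 10% mitochondrial UMIs, 11 without the cells of highest doublet scores, 3 with thinned sums and 6 with cells of at least 3 markers, an alternative chosen after seeing the data. It was 29 without ketogenic library 1, 14 without ketogenic library 2, 37 without control library 1 and 6 without control library 2 (6 to 37). The gene called in the comparison as reported was called in each of these except with no filter. The replicate block gave 4. Deviations from the diet mean had a correlation of -0.0112 over 4219 genes between the ketogenic and control libraries numbered 1. With 2 libraries per diet, the deviations of the libraries numbered 2 mirror these. The correlation therefore cannot show whether same-numbered libraries were paired. Against enterocytes 4 genes passed with cells under 10% mitochondrial UMIs, and 3 to 86 with a library left out (4 without ketogenic library 1, 3 without ketogenic library 2, 86 without control library 2). Against enteroendocrine cells 2 passed with either cell filter and 0 to 72 with a library left out (0 without either ketogenic library, 5 without control library 1, 72 without control library 2). Against goblet cells 3 passed without the cells of highest doublet scores and 0 to 10 with a library left out (1 without ketogenic library 1, 0 without ketogenic library 2, 10 without control library 1). The share of tuft cells had a log2 ratio between 0.42 and 0.62 with a library left out and did not pass in any alternative. Log2 fold changes near 0 changed sign for Trpm5 (-0.017 under 10% mitochondrial UMIs, -0.0055 without the cells of highest doublet scores), Lrmp (0.0081 with no filter, 0.023 under 10% mitochondrial UMIs, 0.038 without the cells of highest doublet scores, 0.0072 with at least 3 markers), Pou2f3 (-0.0057 with thinned sums, -0.0031 with at least 3 markers) and Il25 (0.26 under 10% mitochondrial UMIs). With a library left out they ranged over -0.15 to 0.0095 for Dclk1, -0.12 to 0.25 for Trpm5, -0.12 to 0.11 for Lrmp, -0.31 to 0.049 for Rgs13, -0.12 to 0.16 for Pou2f3 and -0.16 to 0.10 for Il25. The causes were not tested. Between 79 and 122 tuft cells per library limit genes of few UMIs, and a missed threshold does not show that a gene was unaffected.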
